A study of Mus musculus with 12 samples.

Results

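The transcriptional regulators of brown fat identity examined here are 10 genes chosen by name: Prdm16, Ebf2, Zfp516 and Irf4, which switch brown fat genes on, the coactivators Ppargc1a and Ppargc1b, the nuclear receptors Esrra and Esrrg, and the repressors Nrip1 and Tle3. All 10 were present among the 14775 genes of the table, and all 10 were among the 13531 genes with a mean of at least 10 normalized counts that entered the test. RNA was sequenced in TMCON brown adipocytes, a mouse line made from brown adipose tissue of pups by retroviral expression of SV40 (the viral protein immortalizes the cells), so that the line stands for cultured cells and not for innervated tissue. The study made such lines from wild-type FVB/N mice and from Ucp1 reporter mice, and which of these TMCON is was not given in the sources used here. CPF cells received 1 pM chlorpyrifos (CPF), an organophosphate insecticide, for 4 h, and vehicle cells received DMSO for 4 h, with 6 libraries per group. All cells of both groups had been in induction medium for 2 days and in differentiation medium with T3 and insulin for 7 days, and were treated in Krebs-Ringer bicarbonate buffer with albumin. No source says whether the libraries of a group came from separate cultures, so that the p-values below rest on a spread between libraries that may be only technical. The question asked of these genes was whether their transcript levels differed after exposure to CPF.

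Brown adipocytes burn fuel to make heat through the mitochondrial protein UCP1, and the cells owe this program to a small network of nuclear proteins. EBF2 opens chromatin at brown fat genes, PRDM16 binds C/EBP and PPAR proteins there and recruits activating and silencing complexes, ZFP516 and IRF4 act with PRDM16 and PGC-1α, and PGC-1α and PGC-1β drive mitochondrial genes together with the receptors ERRα and ERRγ. RIP140, the product of Nrip1, and TLE3 work against this program, RIP140 by opposing PGC-1 and ERR proteins and TLE3 by displacing PRDM16 from PPARγ. Ppargc1a is the member best known for a rapid response to cold, through cAMP and the factor CREB, which binds the cAMP response element (CRE).

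Promoter windows of 300 bases (250 before and 50 after the annotated start) were taken from RefSeq on GRCm38.p6 for the 7 members that matched by symbol, which gave 11 windows because Esrrg had 4 and Nrip1 had 2. Each window was searched on both strands for the full CRE, TGACGTCA, for the ERR element AAGGTCA, for the EBF site (TCCC and GGGA set 2 bases apart) and for the core of the CRE, TGACG, which lies within the full CRE. The full CRE was found in 1.79% of all 32817 promoter windows, the ERR element in 4.72%, the EBF site in 0.905% and the CRE core in 20.8%. Among the members' windows only the core of the CRE was found, in Ppargc1a and in Tle3, and these windows are shown because cAMP is the known route to Ppargc1a. The Ppargc1a window is chr5:51567676-51567975 on the minus strand and the Tle3 window is chr9:61372116-61372415 on the plus strand, both written 5′ to 3′ with the CRE core in capitals.
Ppargc1a: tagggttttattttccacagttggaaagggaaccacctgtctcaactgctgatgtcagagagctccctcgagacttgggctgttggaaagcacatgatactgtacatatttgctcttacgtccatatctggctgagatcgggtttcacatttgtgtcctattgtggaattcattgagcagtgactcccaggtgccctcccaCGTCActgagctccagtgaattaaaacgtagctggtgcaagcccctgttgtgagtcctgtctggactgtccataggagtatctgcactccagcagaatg
Tle3: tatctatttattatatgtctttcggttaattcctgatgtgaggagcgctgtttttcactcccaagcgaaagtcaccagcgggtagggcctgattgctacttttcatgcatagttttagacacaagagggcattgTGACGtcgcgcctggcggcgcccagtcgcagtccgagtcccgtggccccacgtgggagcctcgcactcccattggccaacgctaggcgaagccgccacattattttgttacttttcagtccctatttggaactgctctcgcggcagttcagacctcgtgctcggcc
In the Ppargc1a window the core occupied bases 202 to 206, counted from the 5′ end, and read as TGACG on the opposite strand. In the Tle3 window it occupied bases 135 to 139. A match of these letters is a description of the sequence and not a binding site. The Ppargc1a window lay at the upstream end of the annotated gene (51567726), and no other start of this gene was searched. The lack of a full CRE thus holds for that window only.

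CPF replicate 1 and vehicle replicate 2 stood apart over all genes, and results are given with and without them. A principal component analysis placed them apart on its first axis (29.1% of the variance). There CPF replicate 1 lay at -33.0 and vehicle replicate 2 at -31.5, whereas the other 10 libraries lay between -6.12 and 13.7. On the second axis (19.9%) they lay at opposite ends, CPF replicate 1 at -26.6 and vehicle replicate 2 at 27.5. The other 10 libraries lay between -16.3 and 10.9 on that axis. Reads recovered from the normalized counts, summed over the 14775 genes, numbered 9313253 to 14166615 per library with CPF and 7875502 to 12100594 with vehicle. Reads outside these genes are not in these totals. The members were covered by between 54 reads (Esrrg) and 2089 reads (Esrra) per library, so that counting error was smallest for Esrra and largest for Esrrg. All 8 mature adipocyte markers were present, with a summed level of 59378 to 104498 normalized counts in CPF libraries and 74044 to 94066 in vehicle libraries. Of the 8 brown adipocyte markers 7 were present (Dio2 was not analysed here), and their sum was 8165 to 14836 in CPF libraries and 12146 to 15902 in vehicle libraries. Of 10 preadipocyte and fibroblast markers, 8 were present, with sums of 36783 to 49651 in CPF libraries and 39934 to 75875 in vehicle libraries. CPF replicate 1 (49651) and vehicle replicate 2 (75875) had the highest of these sums, against a median of 41614 in the other 10 libraries. Col1a1 and Col3a1 gave most of both sums (22751 and 17994 in CPF replicate 1, 37993 and 26917 in vehicle replicate 2). Pdgfra (6338 and 8783) and Ly6a (261 and 195) were also highest in these libraries. Dlk1 was instead lowest of 12 libraries in vehicle replicate 2 (316), and Cd34, at few counts, in CPF replicate 1 (6.26). Of 6 white adipocyte markers 4 were present, with sums of 2569 to 3286 in CPF libraries and 2381 to 4892 in vehicle libraries. Agt gave most of these sums (2647 in CPF replicate 1, 4365 in vehicle replicate 2). Retn (154) and Lep (9.39) were lowest of 12 libraries in CPF replicate 1, and Hoxc9 (33.4) lay among the others. The genes analysed held 0 of 4 endothelial markers, 1 of 7 skeletal muscle markers (Acta1, 15.4 to 52.2 in CPF libraries and 12.8 to 35.9 in vehicle libraries) and 2 of 6 macrophage and leukocyte markers (Cd68 and Csf1r, summed 132 to 162 in CPF libraries and 101 to 160 in vehicle libraries).

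Over all 12 libraries no member was called in either direction at a Benjamini-Hochberg adjusted p under 0.05 by limma, and 0.0% of the 13531 genes tested were called higher and 0.0% lower with CPF. At an unadjusted limma p under 0.05, 1 of the 10 members (Zfp516, lower with CPF) passed, where 2.77% of all genes were higher and 4.55% lower. edgeR's quasi-likelihood test on reads recovered from the table called 0 genes and DESeq2 called 6 genes lower with CPF, none of them a member, and 1 member passed an unadjusted p under 0.05 in each. Of the members, 5 had a positive and 5 a negative log2 fold change (CPF minus vehicle), with a median of 0.0069, beside a median of -0.0015 over all genes tested. In RNA from whole cultures, fewer cells of a type and less RNA of a gene per cell cannot be told apart.

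**Figure D1:**
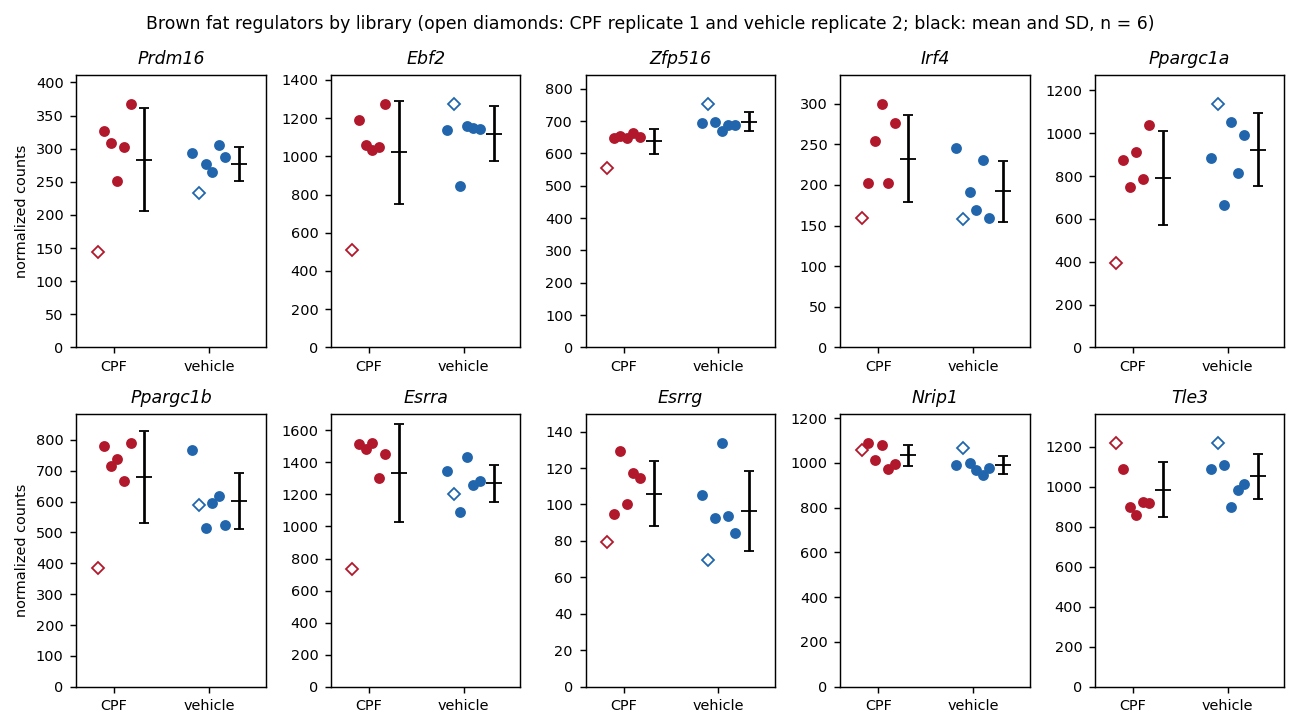
Normalized counts (vertical axes, starting at 0) of the 10 regulators in each CPF and each vehicle library, with the mean and SD of 6 libraries in black and CPF replicate 1 and vehicle replicate 2 as open diamonds. CPF replicate 1 is the lowest of all 12 libraries for Prdm16 (144), Ebf2 (508), Zfp516 (556), Ppargc1a (396), Ppargc1b (386) and Esrra (735) and the highest for Tle3 (1219).

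Among the activators, Prdm16, which encodes the zinc finger protein that gives brown fat precursors their fate, lies on chromosome 4 (154316125 to 154636873, minus strand, GRCm38). Its normalized counts had a minimum of 144, a median of 305 and a maximum of 368 in CPF libraries, and a minimum of 234, a median of 283 and a maximum of 305 in vehicle libraries. CPF replicate 1 was below all vehicle libraries and 3 CPF libraries were above all of them, so that the vehicle values lay inside the spread of the CPF values. The means were 283 ± 78.1 with CPF and 277 ± 25.4 with vehicle (SD, n = 6 each). On the log2 scale CPF minus vehicle was -0.02 (SE 0.18, 95% interval -0.40 to 0.36, limma adjusted p = 0.989). The coefficient of variation was 27.5% in CPF libraries and 9.16% in vehicle libraries, and without CPF replicate 1 the CPF libraries averaged 311 ± 42.3. The log2 difference was then 0.16 (limma adjusted p = 0.387), and it was also above 0 without CPF replicate 4 (0.0020) or vehicle replicate 5 (0.0076).

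Ebf2 encodes an early B cell factor that marks brown and beige precursors, and lies on chromosome 14 (67233292 to 67430918, plus strand). CPF libraries had a minimum of 508, a median of 1056 and a maximum of 1273 normalized counts, and vehicle libraries a minimum of 842, a median of 1145 and a maximum of 1275. CPF replicate 1 was the single low CPF library, and the other 5 CPF libraries lay within the range of the vehicle libraries. Ebf2 had a log2 fold change of -0.18 (SE 0.19, 95% interval -0.59 to 0.23, limma adjusted p = 0.846). Without CPF replicate 1 and vehicle replicate 2 it was 0.05 (SE 0.086, limma adjusted p = 0.834) and thus of the opposite sign, and it was 0.01 without CPF replicate 1 alone.

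Zfp516, which encodes a zinc finger protein that binds the Ucp1 promoter and is induced through cAMP, lies on chromosome 18 (82910663 to 83005314, plus strand). Its CPF libraries had a minimum of 556, a median of 650.1 and a maximum of 663 normalized counts, and its vehicle libraries a minimum of 670.1, a median of 691 and a maximum of 753. Every CPF library was thus below every vehicle library, which held for 0.34% of all genes tested (46 genes). The nearest values across the groups were those of CPF replicate 5 (663) and vehicle replicate 4 (670.1). Zfp516 had 533 to 890 reads per library, at which the counting error of a single library is larger than the gap between these values. The means were 637 ± 39.8 with CPF and 698 ± 28.6 with vehicle (SD, n = 6 each). The log2 difference was -0.13 (SE 0.056, 95% interval -0.25 to -0.02), which is a fold of 0.911. The two-sided exact permutation test over all arrangements of 6 and 6 libraries gave an unadjusted p of 0.00216, the smallest it can give, whereas limma's p was 0.0282 before and 0.651 after adjustment over all genes. This difference was known from an earlier reading of the same libraries and is not a separate line of evidence.

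The libraries at the far ends of the Zfp516 values were those that stood apart, CPF replicate 1 (556) and vehicle replicate 2 (753). Without them the 5 remaining CPF libraries lay between 648 and 663 and the 5 remaining vehicle libraries between 670.1 and 698, with means of 653 ± 6.17 in CPF libraries and 687 ± 10.5 in vehicle libraries (SD, n = 5 each). The groups still did not overlap, and Zfp516 was the only member of which this held, where 1.4% of all genes tested had every CPF library below every vehicle library and 1.77% had the reverse. In these 10 libraries the log2 fold change was -0.07 (SE 0.047, 95% interval -0.17 to 0.02, limma adjusted p = 0.505). The two-sided exact permutation test over 252 arrangements gave 0.00794, the smallest it can give. Without overlap this test always gives its smallest p, here as over 12 libraries, so that it restates the lack of overlap.

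Irf4 encodes an interferon regulatory factor that works with PGC-1α in brown fat and responds to cold and fasting, and lies on chromosome 13 (30749226 to 30766976, plus strand). Its minimum, median and maximum were 159, 229 and 299.8 normalized counts in CPF libraries, and 158, 180.2 and 245 in vehicle libraries. CPF replicates 3, 4 and 6 were above all vehicle libraries, and the other CPF libraries lay among them. Its log2 fold change of 0.26 (SE 0.16, 95% interval -0.07 to 0.59) was the largest positive one among the members, with a limma adjusted p of 0.725 and a two-sided exact permutation p of 0.154. Without CPF replicate 1 and vehicle replicate 2 it was 0.31 (SE 0.14, limma adjusted p = 0.318), with an exact permutation p of 0.0952, and neither difference passed once adjusted over all genes.

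Ppargc1a and Ppargc1b encode the PGC-1 coactivators, of which PGC-1α is the inducible one and PGC-1β is tied to mitochondrial content and fat metabolism at rest. Ppargc1a (chromosome 5, 51454250 to 51567726, minus strand) had a minimum of 396, a median of 829 and a maximum of 1036 normalized counts in CPF libraries, and 663, 938 and 1137 in vehicle libraries. CPF replicate 1 was far below the rest and the other 5 CPF libraries all lay inside the vehicle range. The log2 fold change was -0.26 (SE 0.21, 95% interval -0.71 to 0.19, limma adjusted p = 0.799, two-sided exact permutation p = 0.286). Without CPF replicate 1 and vehicle replicate 2, the lowest and the highest library of this gene, it was -0.01 (SE 0.12, 95% interval -0.28 to 0.27, limma adjusted p = 0.991), with means of 872 ± 113 in CPF libraries and 881 ± 153 in vehicle libraries. With CPF replicate 1 alone left out it was -0.07, and -0.35 without vehicle replicate 3 alone. The interval leaves room for a difference of either sign, and a p above the threshold does not show that the groups were alike.

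Ppargc1b (chromosome 18, 61298136 to 61400431, minus strand) had a minimum of 386, a median of 727 and a maximum of 789 normalized counts in CPF libraries, and 515, 592 and 766 in vehicle libraries. The CPF libraries other than replicate 1 lay between 668 and 789, above each vehicle library except vehicle replicate 1 (766). Over 12 libraries the log2 fold change was 0.15 (SE 0.16, 95% interval -0.19 to 0.49), with a limma adjusted p of 0.839 and a two-sided exact permutation p of 0.294. Without CPF replicate 1 and vehicle replicate 2 the means were 738 ± 49.3 with CPF and 604 ± 101 with vehicle (SD, n = 5 each), and the log2 fold change was 0.30 (SE 0.090, 95% interval 0.11 to 0.49, limma adjusted p = 0.136). The two-sided exact permutation test gave 0.0317 over 252 arrangements, unadjusted, and the difference thus passed this test of a single gene but not the test adjusted over all genes. With CPF replicate 1 alone left out, the log2 fold change was 0.31 (limma adjusted p = 0.108).

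Esrra and Esrrg encode the estrogen-related receptors ERRα and ERRγ, orphan nuclear receptors that bind PGC-1 proteins and switch on genes of oxidative metabolism. Esrra (chromosome 19, 6910977 to 6921813, minus strand) had a minimum of 735, a median of 1466 and a maximum of 1520.0 normalized counts in CPF libraries, and 1091, 1272 and 1430.4 in vehicle libraries. Of the 6 CPF libraries, 4 were above all vehicle libraries and CPF replicate 1 was below all of them. The log2 fold change was 0.03 (SE 0.15, 95% interval -0.30 to 0.37, limma adjusted p = 0.974) over 12 libraries. It was 0.18 (SE 0.066, 95% interval 0.05 to 0.32, limma adjusted p = 0.202) without CPF replicate 1 and vehicle replicate 2, where the means were 1453 ± 88.9 with CPF and 1283 ± 126 with vehicle and the exact permutation p was 0.0317. The log2 fold change was 0.20 without CPF replicate 1 alone, and between -0.0112 and -0.0040 when CPF replicate 2, 3 or 4 or vehicle replicate 3 was left out. Its exons share 2.07% of their bases with the microRNA gene Mir6990, and 0.948% of its 50-base words occur in another gene, so that few of its reads could belong elsewhere.

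Esrrg (chromosome 1, 187608791 to 188214885, plus strand) was the member with the fewest reads. CPF libraries had a minimum of 79.3, a median of 107 and a maximum of 129 normalized counts, and vehicle libraries had 69.3, 93.2 and 134. The CPF values all lay inside the vehicle range. Esrrg had a log2 fold change of 0.14 (SE 0.15, 95% interval -0.17 to 0.46, limma adjusted p = 0.837) and of 0.13 without CPF replicate 1 and vehicle replicate 2. With 1 library left out it lay between 0.055 (without vehicle replicate 2) and 0.24 (without vehicle replicate 4).

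**Figure D2:**
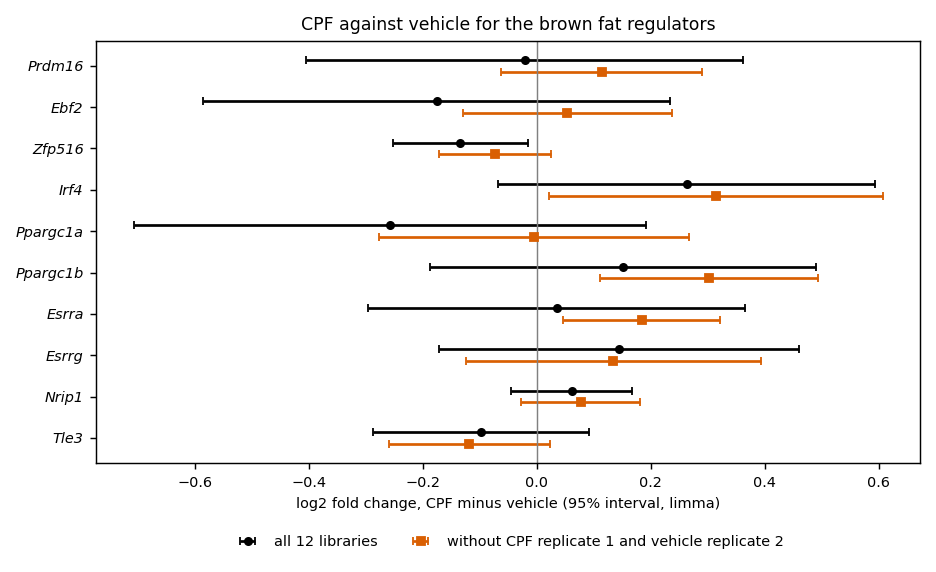
Log2 fold change (CPF minus vehicle, horizontal axis) of the 10 regulators with its 95% interval from limma, over all 12 libraries (black circles) and without CPF replicate 1 and vehicle replicate 2 (orange squares). Over 12 libraries the interval of Zfp516 alone does not reach 0, and without these libraries the intervals of Irf4, Ppargc1b and Esrra lie above 0 and that of Zfp516 includes 0.

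Nrip1, which encodes the repressor RIP140 (chromosome 16, 76287400 to 76373827, minus strand), had a minimum of 973, a median of 1034 and a maximum of 1088 normalized counts in CPF libraries, and 945, 983 and 1067 in vehicle libraries. Its coefficient of variation was 4.58% in CPF libraries and 4.20% in vehicle libraries, and CPF replicate 1 (1055) lay among the others. For Nrip1 the log2 fold change was 0.06 (SE 0.050, 95% interval -0.04 to 0.17, limma adjusted p = 0.799), the narrowest interval among the members.

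Tle3, which encodes a Groucho family corepressor (chromosome 9, 61372366 to 61418497, plus strand), had a minimum of 861, a median of 922 and a maximum of 1219 normalized counts in CPF libraries, and 899, 1051 and 1218 in vehicle libraries. The highest libraries of the 2 groups were CPF replicate 1 and vehicle replicate 2, at almost the same level. The log2 fold change was -0.10 (SE 0.089, 95% interval -0.29 to 0.09, limma adjusted p = 0.814) over 12 libraries and -0.12 (limma adjusted p = 0.442) without these. It was -0.16 without CPF replicate 1 alone (limma adjusted p = 0.285) and -0.055 without vehicle replicate 2 alone (limma adjusted p = 0.993), the ends of the range with a single library left out.

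When CPF replicate 1 and vehicle replicate 2 were left out, 7 members had a positive and 3 a negative log2 fold change, with a median of 0.095, beside a median of -0.0012 over all genes. No member was called by limma, where 0.185% of all genes were called higher and 0.214% lower with CPF. In the libraries then left, the mature adipocyte markers were also set against their medians over 12 libraries. Their median log2 difference was 0.037 to 0.190 with CPF and -0.289 to -0.0076 with vehicle, without overlap. That of the brown adipocyte markers overlapped, at -0.23 to 0.16 with CPF and -0.15 to 0.25 with vehicle. The part of these markers in the members' values was not tested. With CPF replicate 1 alone left out, no member was called either, beside 0.0443% of all genes called higher and 0.037% lower, and the median of the members was 0.11.

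CPF replicate 1 differed from the other libraries by member. Relative to the median of 12 libraries, Ebf2 stood there at 0.446 times, Ppargc1a at 0.450 times, Prdm16 at 0.497 times, Esrra at 0.555 times and Ppargc1b at 0.602 times. These are far out for the library itself, since 0.405% of the 9635 genes with a mean of at least 100 were as low as Ebf2, 0.467% as low as Ppargc1a, 0.872% as low as Prdm16, 1.66% as low as Esrra and 2.74% as low as Ppargc1b. Irf4 (0.784 times), Esrrg (0.816 times) and Zfp516 (0.835 times) were lower by less, with 14.4%, 17.6% and 20.2% of genes as low. Nrip1 was at 1.06 times and Tle3 at 1.22 times its median, with 34.8% and 13.6% of genes as high. The activators, the coactivators and the receptors were thus below their medians in this library and both repressors above theirs. In the same library the summed mature adipocyte markers were 59378, against a median of 93821 in the 10 libraries other than it and vehicle replicate 2. The part of these markers in the members' values was not tested.

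Vehicle replicate 2 gave another pattern. Ppargc1a, Zfp516, Ebf2, Nrip1 and Tle3 had their highest vehicle value there, Esrrg (0.714 times its median) and Irf4 (0.780 times) their lowest of all 12 libraries, and Prdm16 (0.804 times) its lowest vehicle value. Its summed mature adipocyte markers were 81698 and its brown adipocyte markers 15902, the highest brown sum of the 12 libraries. Ucp1 alone gave 5204 of that sum. Ucp1, Cox8b (365), Elovl3 (34.7) and Otop1 (108) each had their highest value of the 12 libraries there. Cidea (7810) and Adrb3 (1015) were next to the lowest of the vehicle libraries, and Cox7a1 (1366) lay among them. The libraries that stood apart therefore agreed in direction from the median for Prdm16, Ppargc1b, Esrra, Esrrg, Irf4, Nrip1 and Tle3, and differed for Ppargc1a, Zfp516 and Ebf2.

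**Figure D3:**
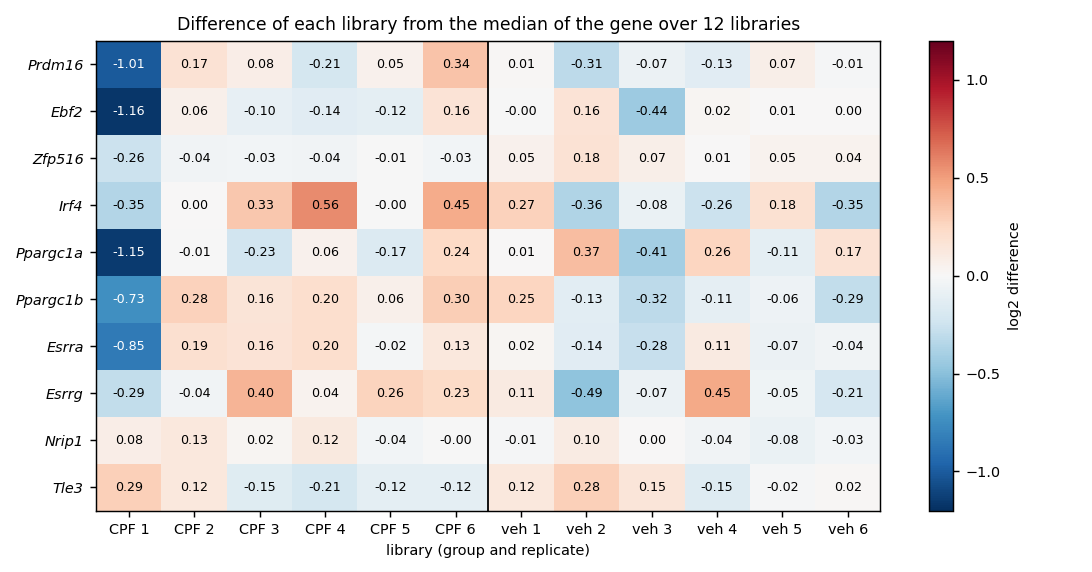
Log2 difference of each library from the median of the gene over 12 libraries, for each regulator (vertical) and library (horizontal, 6 CPF libraries left of 6 vehicle libraries), from blue (lower) to red (higher). CPF replicate 1 is at -1.16 for Ebf2, -1.15 for Ppargc1a and -1.01 for Prdm16, and at 0.29 for Tle3.

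Levels of the members relative to each other were set per kilobase of the union of annotated exons. Esrra was highest, at 304 ± 69.3 normalized counts per kilobase with CPF and 289 ± 26.7 with vehicle (SD, n = 6 each), or 536 ± 122 with CPF and 510 ± 47.1 with vehicle per kilobase of its longest transcript. Ebf2 (147 ± 38.6 with CPF, 161 ± 20.8 with vehicle), Ppargc1b (170.3 ± 37.7 with CPF, 151 ± 22.6 with vehicle) and Ppargc1a (120.2 ± 33.2 with CPF, 140.1 ± 26.1 with vehicle) followed, with ranges that overlapped within each group. Their ranges lay below all Esrra values in vehicle libraries, whereas in CPF libraries those of Ebf2 and Ppargc1b reached above the Esrra value of CPF replicate 1 (168). Tle3 (84.6 ± 11.9 with CPF, 90.3 ± 9.50 with vehicle), Nrip1 (90.2 ± 4.14 with CPF, 86.5 ± 3.63 with vehicle) and Zfp516 (77.0 ± 4.81 with CPF, 84.4 ± 3.46 with vehicle) followed. Their ranges overlapped in vehicle libraries, whereas in CPF libraries all Zfp516 values (67.2 to 80.1) were below all Nrip1 values (84.9 and above). Irf4 (47.4 ± 10.9 with CPF, 39.2 ± 7.67 with vehicle) was next, below every Zfp516 value. Prdm16 (30.4 ± 8.38 with CPF, 29.7 ± 2.72 with vehicle) overlapped with Irf4, and Esrrg (17.1 ± 2.89 with CPF, 15.5 ± 3.50 with vehicle) was lowest, below every Prdm16 value in vehicle libraries. The receptor genes thus stood at the 2 ends of the order, and Prdm16 was next to the lowest.

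**Figure D4:**
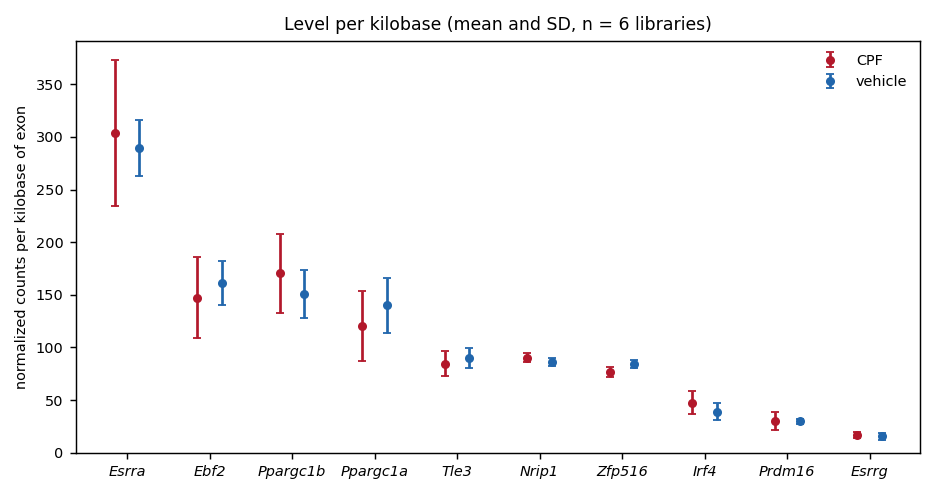
Level of each regulator in normalized counts per kilobase of exon (vertical axis, from 0), as mean and SD of 6 CPF libraries (red, left of each pair) and 6 vehicle libraries (blue). Esrra is highest (304 with CPF, 289 with vehicle) and Esrrg lowest (17.1 with CPF, 15.5 with vehicle).

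The factors that work with the members were read from lists of named genes, each over all 12 libraries and with 0 genes called by limma in either direction. Of all genes tested, 6705 had a positive and 6826 a negative log2 fold change over these libraries. The genes of a list were read from the same libraries, so that their signs are not independent. Of 12 genes for partners and turnover of PRDM16, 7 had a positive and 5 a negative log2 fold change, with a median of 0.01. Among those with the smallest p, Med1, a Mediator subunit gene, had a log2 fold change of 0.07 (limma adjusted p = 0.790), and Cebpb, which encodes the C/EBP partner of PRDM16, had -0.14 (limma adjusted p = 0.859). Of 24 tested genes for partners and downstream factors of PGC-1 proteins, 17 were positive and 7 negative, with a median of 0.03. Gabpb1, a subunit of the NRF-2 complex that PGC-1 proteins coactivate at mitochondrial genes, stood at 0.15 (387 ± 27.1 with CPF, 349 ± 33.3 with vehicle, limma adjusted p = 0.685), Nrf1 at -0.12 and the corepressor gene Ncor1 at 0.08.

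Of 13 other brown and beige fat transcription factors, 8 were positive and 5 negative, with a median of 0.0038. Cebpa, a late factor of fat cell differentiation, had 827 ± 105 normalized counts with CPF and 691 ± 103 with vehicle (log2 fold change 0.26, limma adjusted p = 0.627). Lhx8 and Zic1, transcription factor genes that mark classical brown fat, had the opposite sign. Lhx8 had 229 ± 28.1 normalized counts with CPF and 310.0 ± 107 with vehicle (-0.38, limma adjusted p = 0.677), and Zic1 had 128 ± 10.6 with CPF and 157 ± 30.5 with vehicle (-0.27, limma adjusted p = 0.654). In vehicle replicate 2 they stood at 499 and 207, the highest of 12 libraries, and the log2 fold changes without it and CPF replicate 1 were -0.23 and -0.21. Of 16 corepressor genes and TLE relatives, 8 were positive and 8 negative, with a median of 0.0045. Among these Tle2, a relative of Tle3, had 124 ± 15.8 normalized counts with CPF and 167 ± 32.3 with vehicle (-0.42, SE 0.12, unadjusted p = 0.0038 and adjusted p = 0.569 by limma), and Hdac3 stood at 0.08. A further list, which was not among those planned, of 15 tested family relatives of the members shares genes with the others. It had 2 positive and 13 negative log2 fold changes with a median of -0.10, and 6 positive and 9 negative with a median of -0.06 without CPF replicate 1 and vehicle replicate 2, with 0 genes called in both cases.

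Genes that the members act on moved with the libraries that stood apart. Of 13 tested brown fat target genes, 2 were positive and 11 negative over 12 libraries (median log2 fold change -0.09), and 8 were positive and 5 negative without CPF replicate 1 and vehicle replicate 2 (median 0.06). In CPF replicate 1 their median difference from the gene medians was -0.81, beside -0.54 for the 10 members. Ucp1 had 1593 ± 335 normalized counts with CPF and 2850.2 ± 1338 with vehicle (log2 fold change -0.75, limma adjusted p = 0.611), with 5204 in vehicle replicate 2, and stood at -0.48 (limma adjusted p = 0.369) without these libraries. Otop1, a proton channel gene, stood at -0.74 (limma adjusted p = 0.569) and at -0.45 (limma adjusted p = 0.195) without them, and Cpt1b at -0.31 and -0.17.

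Of 12 ERR target genes, which encode enzymes of fuel oxidation, 10 were positive and 2 negative over 12 libraries (median 0.04), and all 12 were positive without CPF replicate 1 and vehicle replicate 2 (median 0.16). In CPF replicate 1 their median difference from the gene medians was -0.66. As all 12 were read from the same libraries, a shared sign is not 12 separate results. Pdk4, which encodes a kinase that holds back pyruvate dehydrogenase, had 12027 ± 623 normalized counts with CPF and 9819 ± 1154 with vehicle (log2 fold change 0.30, SE 0.080, unadjusted p = 0.0017 and adjusted p = 0.569 by limma). Without these libraries Pdk4 stood at 0.28 (limma adjusted p = 0.0907) and Acadm, a dehydrogenase gene of fatty acid oxidation, at 0.27 (limma adjusted p = 0.0800). Neither passed the threshold.

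The genes whose pattern was most like that of a member were found by Pearson's r of log2 values over 12 libraries, among 9635 genes with a mean of at least 100. They are a description, as all points share the libraries that stood apart, and r over the other 10 libraries is given beside each. Esrra was closest to Tkt, a pentose phosphate enzyme gene (r = 0.99, and 0.96 over 10 libraries), and to Slc2a4 (0.98 and 0.93). Slc2a4 encodes the insulin-dependent glucose transporter and is among the mature adipocyte markers summed above. Ppargc1b was closest to Coq8a, a gene of coenzyme Q synthesis (0.98 and 0.97), and to the potassium channel gene Kcnk3 (0.97 and 0.95). Ppargc1a was closest to Hoxa5 (0.97 and 0.90) and Car2 (0.96 and 0.84), Prdm16 to Selenbp1 (0.97 and 0.80) and Atp5g2 (0.95 and 0.86), and Ebf2 to Cdca7l and Clstn3 (both 0.98, and 0.92 over 10 libraries). Irf4 was closest to the glycogen phosphorylase gene Pygb (0.93 and 0.89) and to Sort1 (0.92 and 0.89), and Tle3 to Gtpbp6 (0.95 and 0.91) and Tinagl1 (0.92 and 0.87). Nrip1 was closest to Zscan29 (0.86 and 0.85) and Lmo4 (0.84 and 0.82), and Esrrg to Ehmt2 (0.88 and 0.80) and Gm28875 (0.86 and 0.81). For Zfp516 the highest were 4631405J19Rik (0.95 and 0.79) and Ints1 (0.91 and 0.72), and the lowest were the proteasome subunit gene Psma5 (-0.92 and -0.64) and Ccndbp1 (-0.91 and -0.47). Those of Zfp516 thus rested on the 2 libraries more than those of Ppargc1b or Esrra.

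Among the members themselves, r exceeded 0.5 in 20 of 45 pairs over 12 libraries and in 10 of 45 pairs over the 10 libraries, for which permutation tests were run. Zfp516 and Esrra had r = -0.85 and Spearman's rho = -0.89 over 10 libraries (permutation p = 0.0012 and 0.0013, Benjamini-Hochberg adjusted over 45 pairs 0.0522 and 0.0594). Over all 12 libraries r of this pair was 0.46, of the opposite sign, so that the inverse relation holds only without CPF replicate 1 and vehicle replicate 2. Within the 10 libraries r was -0.84 after each group was centred on its mean, and -0.89 without the 2 libraries farthest from the median of Zfp516. Ppargc1a and Ebf2 had r = 0.79 (rho = 0.61, permutation p = 0.0051 and 0.0659, adjusted 0.115 and 0.327), with 0.81 after centring and 0.63 without the 2 libraries farthest from the median of Ppargc1a. Ppargc1b had r = 0.76 with Esrra (rho = 0.72, permutation p = 0.0090 and 0.0236, adjusted 0.134 and 0.327), and this was 0.51 without the 2 libraries farthest from its median. Over 12 libraries r was 0.95 for Ppargc1a and Ebf2 and 0.89 for Ppargc1b and Esrra. No pair passed the adjusted threshold over the 10 libraries.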

How the data were processed

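CPF and vehicle cells (6 libraries each) were compared. The sources used here give no versions for the programs that made the table. The authors trimmed the reads (Trimmomatic), aligned them to GRCm38 (HISAT2), counted them per gene by strand (HTSeq) and normalized the counts with DESeq2. The deposited signal is thus a normalized count per gene and library. The table also holds a fold change, a percent change and a p-value from the authors' own comparison, and 12 ratio columns per library, none of which were used.

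Genes with a mean of at least 10 normalized counts were tested with limma 3.58.1 in R 4.3.3 (trend and robust settings, two-sided) on log2(value + 1), on which scale all fold changes stand, with Benjamini-Hochberg adjusted p over all 13531 genes and a threshold of 0.05. Exact permutation tests used the difference in mean normalized counts over all arrangements. Values were whole multiples of 1 read within 0.01 read in 100.0% of cases, and these reads went into edgeR 4.0.16 and DESeq2 1.42.0 as alternatives. The steps were tested on simulated counts with the same spread setting for every gene and no library that stood apart. That test cannot show how such libraries affect the calls. Exon lengths came from GENCODE M21 (GRCm38). The members and lists were chosen with earlier results of these data known. Named genes were all members, up to 3 genes per list with the smallest p, the 2 genes most like each member in pattern (for Zfp516 also the 2 least like it), and the cell type markers; some genes that the rule names are not reported here. Other pseudocounts, filters, scalings, tools, sets of replicates, a replicate block and omission of each library in turn were also tried. Totals of recovered reads per library were 7875502 to 14166615, which sets counting error only.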

Additional observations from a re-analysis of the deposited data

Results flagged for a closer look

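In 6 of the 20 groups of 6 libraries checked (10 members, CPF and vehicle), the highest or the lowest library lay farther from its neighbour than Dixon's test allows at the 95% level. Chance alone passes this in about 1 group in 20. The groups are not independent, since all members were read from the same 12 libraries, so that 1 odd library can flag several of them. In 4 of these it was CPF replicate 1, which was far below the other CPF libraries for Ppargc1b (386 normalized counts), Zfp516 (556), Ebf2 (508) and Esrra (735). Vehicle replicate 2 was far above the other vehicle libraries for Zfp516 (753), and vehicle replicate 3 was far below them for Ebf2 (842). The cause of these values was not tested.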

How the results depend on the processing

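No member was called under any alternative, and 244 of 260 log2 fold changes of members kept their sign. The genes called higher and lower with CPF numbered 3 and 19 with library weights, 8 and 14 in replicates 4 to 6 only, and 25 and 29 without CPF replicate 1 and vehicle replicate 2. DESeq2 called 6 lower. Leaving out 1 library gave 0 to 6 genes higher and 0 to 5 lower, with 6 and 5 without CPF replicate 1. Deviations of same-numbered libraries correlated at -0.21 (replicate 1, which holds CPF replicate 1) to 0.26. In replicates 4 to 6 they correlated at 0.23, 0.26 and 0.16. Only those of replicate 5 were closest to their own number. Such correlations cannot show whether libraries of the same number were paired. The total of recovered reads went with replicate number, at 10678777 or more in replicates 4 to 6 and 10666098 or fewer in replicates 1 to 3. A term for these sets of replicates gave 0 genes called. With a replicate block 0 genes were called, and the smallest adjusted p of a member was 0.642 (limma), so that the block changed no call.

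The log2 fold change of Prdm16 (-0.02) was 0.11 with library weights, 0.030 with edgeR, 0.031 with DESeq2, 0.087 in replicates 4 to 6 only, 0.11 without CPF replicate 1 and vehicle replicate 2, and -0.11 to 0.16 with 1 library left out. That of Ppargc1b was -0.035 and that of Esrra -0.033 in replicates 1 to 3 only. In replicates 4 to 6 only, Ppargc1b was at 0.34 with the lowest adjusted p of a member in any setting (limma adjusted p = 0.0905), and Irf4 was at 0.48 there and at 0.049 in replicates 1 to 3 only. Esrra ranged over -0.011 to 0.20 and Ebf2 over -0.26 to 0.013 with 1 library left out, both highest without CPF replicate 1, and Ebf2 was at 0.053 without both libraries. The difference in means also changed sign for Prdm16 on log2 values (exact permutation p = 0.952) and for Ebf2 without both libraries (exact permutation p = 0.659). Ppargc1b and Esrra had an exact permutation p of 0.0317 there. The cause of these changes was not tested. Per kilobase of the longest transcript, Nrip1 (126) stood above Tle3 (122) with vehicle, and Esrra (510), Ebf2 (215) and Zfp516 (90.4) were also higher by more than their SD than per kilobase of exon. With 6 libraries per group, the 95% interval on the log2 scale was -0.71 to 0.19 for Ppargc1a, -0.59 to 0.23 for Ebf2 and -0.40 to 0.36 for Prdm16. Differences of either sign within these ranges are thus not excluded for these genes.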

Other observations

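The ratio of Ppargc1b to Ppargc1a in normalized counts was computed after both had been seen, and is given with no test. It was 0.976, 0.892, 0.953, 0.807, 0.852 and 0.762 in CPF replicates 1 to 6, with a mean of 0.874 ± 0.0832, and 0.865, 0.517, 0.777, 0.566, 0.759 and 0.530 in vehicle replicates 1 to 6, with a mean of 0.669 ± 0.149 (SD, n = 6 each). CPF replicate 1, where both genes were lowest, had the highest ratio of all 12 libraries, and 3 CPF ratios (replicates 4 to 6) lay within the range of the vehicle ratios.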
